A study of Mus musculus with 12 samples.

Results

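Of the 41290 autosomal peaks of accessible chromatin measured by ATAC-seq in lymph node stromal cells, 336 kept the germ-free and the colonized libraries apart in gut-draining and skin-draining nodes alike. These peaks were chosen by their own values. In 214 peaks, or 0.518% of the autosomal peaks, every library from germ-free (GF) mice lay above every library from specific pathogen-free (SPF) mice (GF-higher peaks), and in 122 peaks, or 0.295%, every SPF library lay above every GF library (SPF-higher peaks). ATAC-seq inserts sequencing adapters into open DNA, so the reads at a position count how often it was open. The values were RPKM, in which the reads of a peak are divided by its length in kilobases and by the size of the library. Because these values chose the peaks, the housing differences below are descriptions and carry no test.

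The cells were CD45- CD24- CD31- Pdpn+ non-endothelial stromal cells sorted from mesenteric (mLN, gut-draining) or peripheral (pLN, skin-draining) nodes of wild-type BALB/c mice. The groups were mLN-SPF (3 libraries), pLN-SPF (3), mLN-GF (3) and pLN-GF (2), which gave 6 SPF and 5 GF libraries. The column for replicate 2 of pLN-GF held the mean of the 5 other pLN columns and was left out. The only BALB/c line that the methods list as bred under SPF conditions is CD90.1, without saying that it was used here, whereas the GF mice were derived by cesarean section at another institute and kept at either. The methods state matched ages, although the age range given for the GF mice began and ended somewhat earlier. Housing, colony and any difference in line or age therefore cannot be told apart in any value below. The study states that at least 2 replicates of its bulk sequencing came from independent experiments, but neither it nor the labels say which libraries, so part of the spread between them may be technical.

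Stromal cells form the scaffold of a lymph node, produce the chemokines that place lymphocytes and present antigen to them. Lymph and migrating cells carry products of gut microbes to the mesenteric nodes, whereas GF mice carry no microbes. An accessible peak at a start site marks a promoter, and one further away can mark an enhancer. The nearest protein-coding start site names each peak here as a position, and transcription of that gene was not measured in these data.

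Reads in peaks ranged from 2886129 in mLN-SPF 3 to 10380493 in pLN-SPF 1, and a peak held a median of 37 to 136 reads per library. Fewer reads give a peak a wider spread. In a principal component analysis of all peaks the nodes lay apart on the first component (51.5%), where mLN-SPF 2 and mLN-GF 2 came closest to the pLN libraries. The housings overlapped on the second (10.6%), at -56.8 to 34.0 for SPF and 8.20 to 59.0 for GF libraries, through pLN-SPF 3 at 34.0. The other SPF libraries lay below all GF libraries, with mLN-SPF 3 nearest at 0.511. Both pLN-SPF 3 and mLN-SPF 3 had fewer reads than any other library. Promoter peaks were present for 8 of 10 stromal markers (not for Pdpn and Ccl19), 3 of 7 endothelial, 1 of 7 hematopoietic (Ikzf1, 11.1 to 22.8 RPKM), 3 of 4 perivascular, 1 of 3 mesothelial and 0 of 4 epithelial and Schwann cell markers. No marker promoter was among the separated peaks. The summed RPKM of the perivascular markers was 52.1 to 84.6 in mLN-SPF, 74.9 to 92.5 in mLN-GF, 95.1 to 127 in pLN-SPF and 143 to 150 in pLN-GF, so the GF libraries lay above the SPF libraries in pLN but not in mLN. That of the stromal markers was 367 to 422 in mLN-SPF, 316 to 387 in mLN-GF, 350 to 406 in pLN-SPF and 296 to 348 in pLN-GF, so that the GF libraries lay below the SPF libraries in pLN but overlapped them in mLN. Their part in the separated peaks was not tested. Fewer open cells and less opening per cell cannot be told apart in sorted bulk cells.

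The sequences of the 3 peaks with the largest gap in each direction are shown, because these peaks had the widest separation between housings. They were read from RefSeq GRCm38 on the plus strand, over the whole peak or its central 300 bases. Capitals mark matches on either strand to AP-1 (TGANTCA), CRE (TGACGTCA), NF-Y (CCAAT) and NF-kB sites. The marked matches did not overlap. A match is a property of the letters and says nothing of binding.
H2-Q7, GF-higher, chr17:35438941-35439240: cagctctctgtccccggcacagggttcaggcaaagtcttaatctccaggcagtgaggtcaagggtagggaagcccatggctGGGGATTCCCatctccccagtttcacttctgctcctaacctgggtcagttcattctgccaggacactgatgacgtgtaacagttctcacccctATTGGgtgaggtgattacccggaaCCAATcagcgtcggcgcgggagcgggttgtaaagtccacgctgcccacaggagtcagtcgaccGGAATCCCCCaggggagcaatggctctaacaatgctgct
Ecpas, GF-higher, chr4:58867306-58867516: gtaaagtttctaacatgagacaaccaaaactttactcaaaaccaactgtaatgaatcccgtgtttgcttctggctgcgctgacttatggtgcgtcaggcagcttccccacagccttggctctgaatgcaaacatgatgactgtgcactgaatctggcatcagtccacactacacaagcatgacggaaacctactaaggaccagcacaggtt
C1qtnf3, GF-higher, chr15:10869897-10870181: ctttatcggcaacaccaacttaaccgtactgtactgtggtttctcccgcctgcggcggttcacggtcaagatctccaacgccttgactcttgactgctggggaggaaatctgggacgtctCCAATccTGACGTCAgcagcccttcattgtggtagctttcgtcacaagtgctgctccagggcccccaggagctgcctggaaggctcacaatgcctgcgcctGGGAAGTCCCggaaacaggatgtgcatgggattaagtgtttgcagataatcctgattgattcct
Siah1a, SPF-higher, chr8:86767066-86767205: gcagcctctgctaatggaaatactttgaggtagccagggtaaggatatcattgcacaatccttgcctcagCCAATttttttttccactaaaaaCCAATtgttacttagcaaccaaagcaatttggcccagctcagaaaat
Myh15, SPF-higher, chr16:49289211-49289329: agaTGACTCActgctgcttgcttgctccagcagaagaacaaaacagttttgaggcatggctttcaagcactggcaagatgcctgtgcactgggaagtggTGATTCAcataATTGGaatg
Ahdc1, SPF-higher, chr4:133005383-133005510: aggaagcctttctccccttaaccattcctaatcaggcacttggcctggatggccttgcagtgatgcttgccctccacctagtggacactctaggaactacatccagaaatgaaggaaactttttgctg

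The H2-Q7 window, from a peak over the start site of the gene, held 2 NF-kB and 2 NF-Y matches, and the C1qtnf3 window, which lies between genes, held 1 match each to NF-kB, NF-Y and CRE. Myh15 held 2 AP-1 matches and 1 to NF-Y, Siah1a held 2 to NF-Y, and Ecpas and Ahdc1 held none of the 4.

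The largest gap of all lay at the promoter of H2-Q7, which encodes Qa-2, a nonclassical MHC class I molecule. This peak, chr17:35438900-35439281, gave 33.6, 20.7 and 25.8 RPKM in the mLN-SPF libraries, 28.7, 20.9 and 17.97 in pLN-SPF, 76.7, 78.9 and 79.0 in mLN-GF, and 84.0 and 109 in pLN-GF. The lowest GF library was 2.28 times the highest SPF library, and both nodes had the same order, as the rule requires. The mean was 85.6 ± 13.5 RPKM in GF (SD, n = 5) and 24.6 ± 5.88 in SPF (SD, n = 6), a ratio of 3.48, on 21 to 291 reads per library. The neighbouring promoter of H2-Q6, a near-identical gene of the same cluster, was also GF-higher, at 28.8 ± 1.77 against 21.7 ± 2.70 RPKM. H2-Q6 falls outside the rule for named peaks and was added after its values were seen.

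Among 17 promoter peaks of 16 H2 genes, which hold the classical and nonclassical MHC genes and a few of their neighbours, these were the only separated ones. The other 15 overlapped between housings, and 12 of them had a lower mean in GF libraries. Their differences ranged from -0.63 to 0.18 on the log2(RPKM + 1) scale, against 1.80 for H2-Q7 and 0.41 for H2-Q6. Only uniquely mapped reads were kept, and the reference is the C57BL/6J genome, whose MHC haplotype is not that of BALB/c. The split of reads among the H2-Q copies is therefore uncertain.

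**Figure D1:**
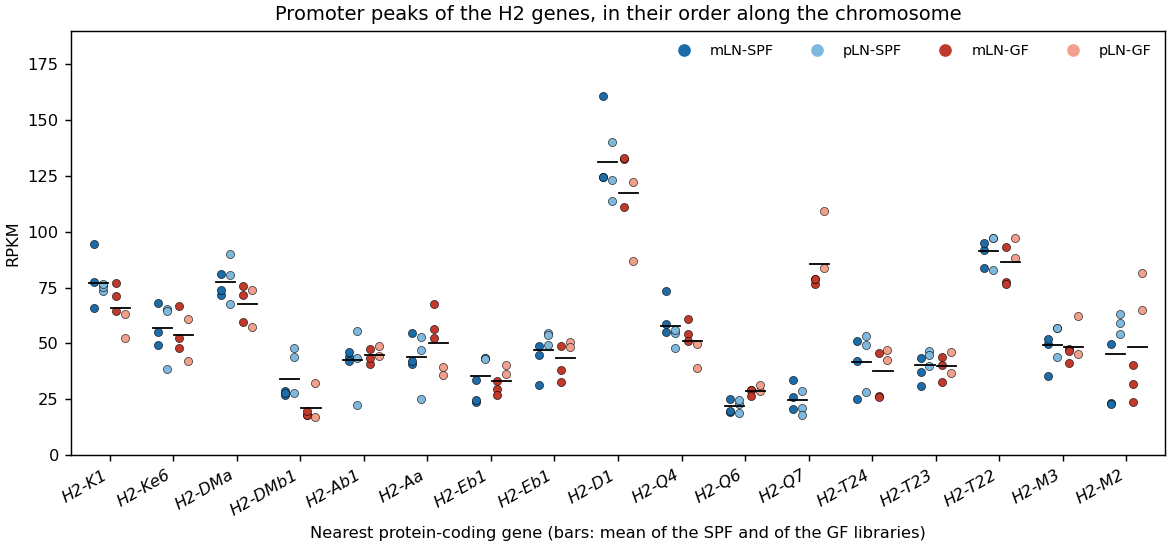
RPKM of the 17 promoter peaks nearest to H2 genes in each of the 11 libraries (points, coloured by group), in their order along the chromosome, with bars for the mean of the 6 SPF and of the 5 GF libraries. At H2-Q7 the GF libraries sit at 76.7 to 109 and the SPF libraries at 17.97 to 33.6, while the other promoters except H2-Q6 overlap between housings.

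Several GF-higher peaks also lay among the Raet1 genes. The Raet1 genes on chromosome 10 encode ligands of the activating receptor NKG2D of natural killer and T cells. In a window of 350 kb with 10 peaks, 4 were GF-higher, against 0.518% of all autosomal peaks, and 9 had a higher mean in GF libraries. The median housing difference over all peaks was 0.00 on the log2(RPKM + 1) scale. The 4 were the promoter peaks of E030030I06Rik (25.4 ± 3.41 RPKM in SPF, 37.3 ± 5.34 in GF) and Raet1d (30.3 ± 9.26 and 55.2 ± 12.0), a peak in an intron of Raet1e (15.9 ± 2.50 and 26.6 ± 7.40) and 1 between genes nearest to Raet1d (15.02 ± 8.56 and 29.4 ± 4.32). All 4 had narrow gaps. Their highest SPF and lowest GF values were 30.6 and 31.5, 41.0 and 42.8, 20.6 and 21.2, and 23.7 and 23.8 RPKM, in that order. The window was chosen after its values were seen. Members of the family have near-identical copies, and soft-masked repeats covered 6.23% to 67.6% of these 4 peaks, so the split of reads among copies is uncertain here too.

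Most of the GF-higher peaks next in size lay in introns or between genes. A peak in an intron of Ecpas, a proteasome scaffold, had 7.38, 7.85 and 6.68 RPKM in the mLN-SPF libraries and 4.07, 7.05 and 7.75 in those of pLN-SPF. In GF libraries it gave 23.8, 26.5 and 25.5 in mLN and 16.8 and 16.3 in pLN. Its GF libraries were at least 2.08 times the SPF libraries, although it held only 4 to 36 reads per library.

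A peak 82.2 kb from C1qtnf3, which encodes a secreted protein related to adiponectin, had the largest ratio of means among these, at 4.06. It gave 17.1, 14.2 and 9.89 RPKM in the mLN-SPF libraries, 6.03, 5.96 and 9.17 in pLN-SPF, 41.7, 39.3 and 32.8 in mLN-GF, and 43.2 and 53.9 in pLN-GF. Its SPF libraries were lower in pLN than in mLN, whereas its GF libraries were not.

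Gnai3, an inhibitory G protein subunit, held an intronic peak at 8.30 ± 2.11 RPKM in SPF and 32.5 ± 7.36 in GF libraries. The lowest GF value there, 19.8, came from mLN-GF 3, and the peak held as few as 2 reads in a library. A peak 15.4 kb from Fzd5, a Wnt receptor gene, had 3.93 to 14.5 RPKM in SPF and 23.3 to 29.6 in GF libraries. The peak nearest Atp11b, a phospholipid flippase gene, lay 348 kb away and had 16.4 to 24.8 against 38.9 to 60.9 RPKM on 66 to 373 reads. The promoter peak of Adgrf3, an adhesion G protein-coupled receptor, had 14.5 to 27.2 against 42.4 to 72.4 RPKM, but soft-masked repeats covered 100% of it. A peak 64.5 kb from Sspn, which encodes sarcospan of the dystrophin complex, had 3.47 to 12.8 against 19.6 to 31.2 RPKM on 3 to 15 reads.

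The largest SPF-higher gaps were smaller. A peak 21.1 kb from Siah1a, a ubiquitin ligase gene, had 30.6, 23.7 and 32.7 RPKM in the mLN-SPF libraries and 21.1, 21.2 and 44.4 in those of pLN-SPF. It gave 13.2, 12.2 and 8.98 in mLN-GF and 14.7 and 11.3 in pLN-GF, a ratio of means of 2.40, and its lowest SPF library was 1.44 times the highest GF library. A peak 232 kb from Myh15, a myosin heavy chain gene, had 30.2 to 39.3 RPKM in SPF and 16.9 to 21.1 in GF libraries. The SPF libraries were even there, at 36.7 ± 3.49.

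A peak 5.996 kb from Ahdc1, which encodes an AT-hook DNA-binding protein, had 24.1 to 54.7 against 14.6 to 19.4 RPKM, and the highest values were those of mLN-SPF 1 and mLN-SPF 3. Further from genes, peaks 152 kb from Mad2l1, a spindle checkpoint gene, and 155 kb from Csl, a citrate synthase-like gene, had means of 12.8 ± 3.45 and 32.5 ± 2.85 RPKM in SPF libraries. In GF libraries their means were 5.97 ± 1.35 and 20.9 ± 3.16. An intronic peak of Nckap5 had the largest ratio of these, 2.66, with 15.5 to 39.5 against 2.37 to 13.0 RPKM, but only 3 reads in its lowest library. The promoters of Grina, a gene that protects cells from death, and Efr3b, which anchors a lipid kinase at the plasma membrane, completed the 8, with means of 41.3 ± 8.97 against 27.6 ± 2.57 and 23.8 ± 2.88 against 16.4 ± 2.53 RPKM.

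**Figure D2:**
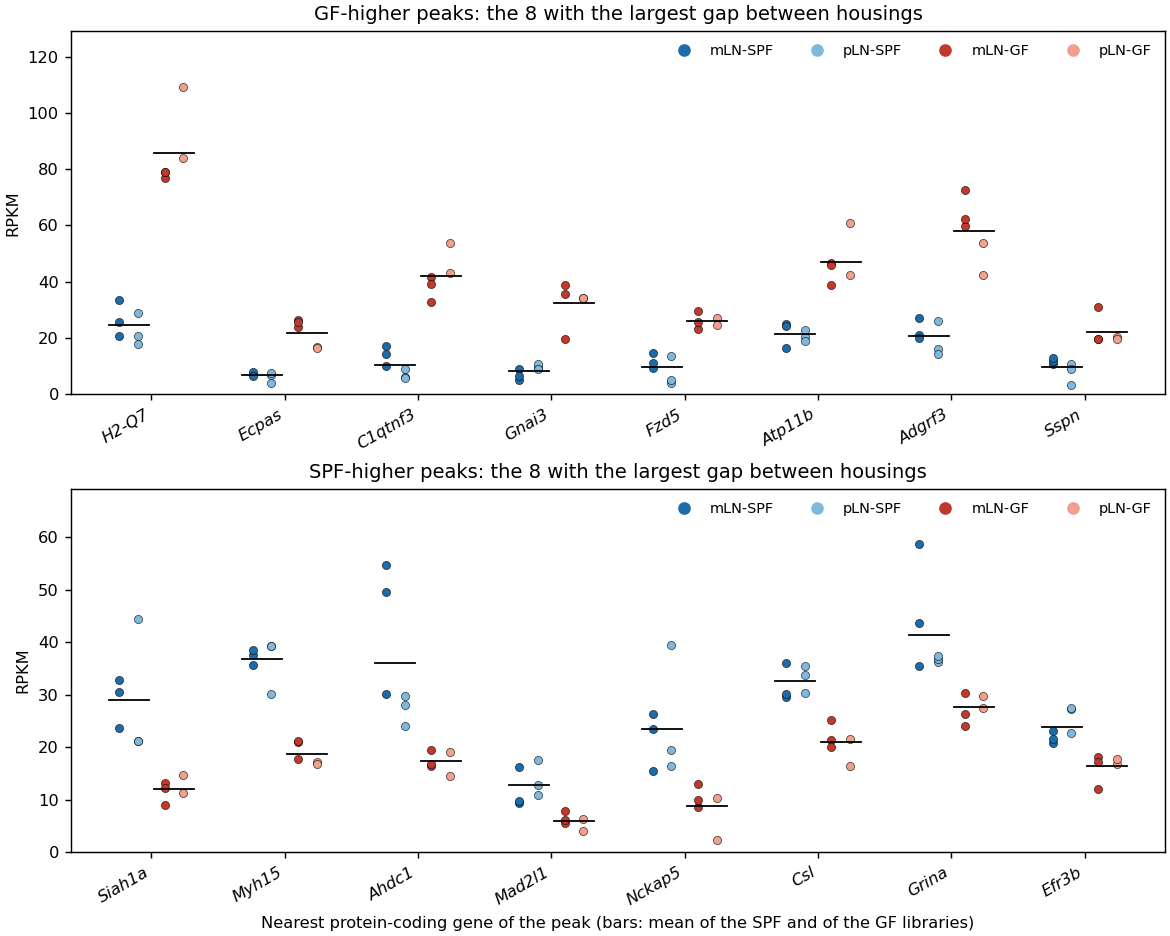
RPKM of the 8 GF-higher (top) and 8 SPF-higher (bottom) peaks with the largest gap, by nearest gene, in each of the 11 libraries (points, coloured by group), with bars for the mean of the SPF and of the GF libraries. The groups do not overlap in any of them, as the rule requires, and the gap at H2-Q7, 33.6 to 76.7, is the widest.

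Over all 214 GF-higher peaks the median ratio of GF to SPF means was 1.70, from 1.08 to 4.46, and 60 were over 2. Over the 122 SPF-higher peaks the median ratio of SPF to GF means was 1.37, from 1.12 to 3.43, and 9 were over 2. GF-higher peaks held a median of 55 reads and SPF-higher peaks 125. Fewer reads give a wider spread, which needs a larger ratio to keep the libraries apart, so the 2 medians are not directly comparable. The gap itself was narrow in most peaks. The nearest libraries of the 2 housings differed by a median of 1.09 times in GF-higher and 1.04 times in SPF-higher peaks, and by over 1.2 times in 42 and 4 peaks. The median GF-higher peak was at 17.95 to 19.7 RPKM in the SPF and 30.2 to 34.5 in the GF libraries. The median SPF-higher peak was at 32.3 to 37.2 and 22.8 to 26.0.

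**Figure D3:**
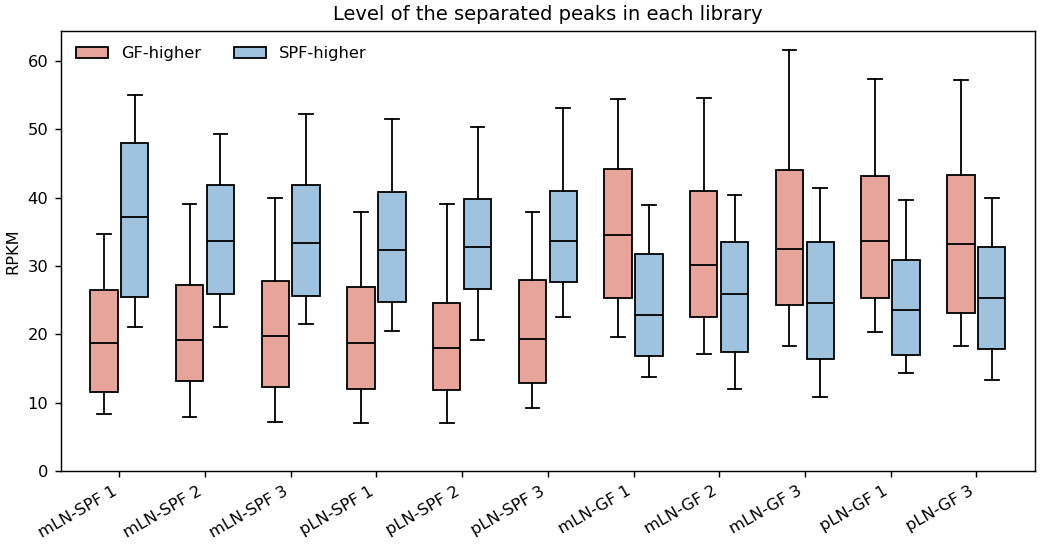
RPKM of the 214 GF-higher and the 122 SPF-higher peaks in each of the 11 libraries; boxes span the quartiles with the median as a line, and whiskers reach the 10th and 90th percentiles. As the rule requires, the medians shift together between housings in both nodes, from 17.95 to 19.7 up to 30.2 to 34.5 in GF-higher peaks.

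At the edge of the rule the values were all but equal. The GF-higher peaks with the smallest gap lay in introns of Glis3, a zinc finger factor gene (highest SPF library 20.7, lowest GF library 20.8 RPKM), and Lgmn, which encodes the protease legumain (36.6 and 36.7). Just outside lay peaks nearest to Mrps23 (34.9 and 34.9) and Zfp825 (59.8 and 59.8). The SPF-higher peaks with the smallest gap lay at the promoters of Ahnak, a large scaffold protein gene (lowest SPF 45.3, highest GF 45.2), and Socs5, a suppressor of cytokine signaling (72.5 and 72.4). Just outside lay those nearest to Larp4 (36.6 and 36.7) and Slc14a2 (27.3 and 27.3).

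The sets depended on single libraries at this edge. Leaving out 1 library can only add peaks, and all 214 and 122 stayed in. The GF-higher count was 368 without mLN-SPF 3, 412 without pLN-SPF 3, 364 without mLN-GF 2, 425 without mLN-GF 3 and 352 without pLN-GF 1. The SPF-higher count was 190 without mLN-SPF 2, 239 without mLN-SPF 3, 252 without pLN-SPF 3, 184 without mLN-GF 1, 260 without mLN-GF 2, 510 without mLN-GF 3, 191 without pLN-GF 1 and 217 without pLN-GF 3. Without both of the shallowest SPF libraries the counts were 786 and 573. In SPF-higher peaks the highest GF library was most often mLN-GF 3 (38 of 122), and in GF-higher peaks the lowest was most often mLN-GF 2 (61 of 214).

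Few of these peaks differed between the nodes. The difference between mLN and pLN averaged over housing was tested with limma over all 42424 distinct peaks, and a peak was called a differentially accessible region (DAR) where it changed 2-fold or more with an adjusted p below 0.05. Of all peaks, 15.5% were location DARs, 9.43% with higher values in mLN and 6.05% in pLN. Of the 214 GF-higher peaks 1 was, with higher values in pLN, and of the 122 SPF-higher peaks 0 were. At an unadjusted p under 0.05 there were 15 and 1, against 41.8% of all peaks. The rule itself keeps such peaks out, since a node difference larger than the housing difference makes the housings overlap.

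The 1 location DAR lay in a UTR of Ednrb, a receptor for endothelins, at chr14:103815620-103816036. It gave 9.33, 7.95 and 4.23 RPKM in the mLN-SPF libraries, 14.6, 12.7 and 15.7 in pLN-SPF, 25.3, 20.1 and 17.2 in mLN-GF, and 47.9 and 50.9 in pLN-GF. Each housing was higher in pLN than in mLN, and each node higher in GF than in SPF mice. The difference of mLN minus pLN was -1.09 (SE 0.23, log2(RPKM + 1) scale, adjusted p = 0.00245, limma with Benjamini-Hochberg adjustment, n = 11). With a pseudocount of 5 RPKM it fell under 2-fold and 0 peaks were called.

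Smaller location changes passed an adjusted p under 0.05 in 4 further GF-higher peaks, of which 3 are given, while 31.4% of all peaks passed it. Toward pLN were an intronic peak of Rbp2, a retinol-binding protein gene of the gut (-0.65, SE 0.15, limma adjusted p = 0.00498), and a peak 23.8 kb from Tcp11, a testis gene (-0.51, SE 0.18, adjusted p = 0.0426). Toward mLN was the promoter peak of Cfap45, a gene of cilia (0.74, SE 0.26, limma adjusted p = 0.0413). At Cfap45 the pLN-GF libraries gave 14.6 and 15.7 RPKM, above the 12.0 of mLN-SPF 1.

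In these peaks the housing difference had a similar size in both nodes. Its median in GF-higher peaks was 0.71 in mLN and 0.76 in pLN on the log2(RPKM + 1) scale, and in SPF-higher peaks -0.48 and -0.40. It was larger in mLN in 100 of the 214 and in 74 of the 122 peaks. The interaction of location and housing, tested with limma, was called in 0 of the 336 peaks and in 0% of all 42424, and the smallest adjusted p among the 336 was 1.00. At an unadjusted p under 0.05 there were 3 GF-higher and 0 SPF-higher peaks, and 1485 (3.5%) of all peaks. The rule orders the GF and SPF libraries of both nodes together, so every separated peak has the same direction in each node by construction. It also disfavours peaks that differ between housings in 1 node only. The similar sizes and the lack of interaction calls among the 336 peaks are therefore partly built in.

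**Figure D4:**
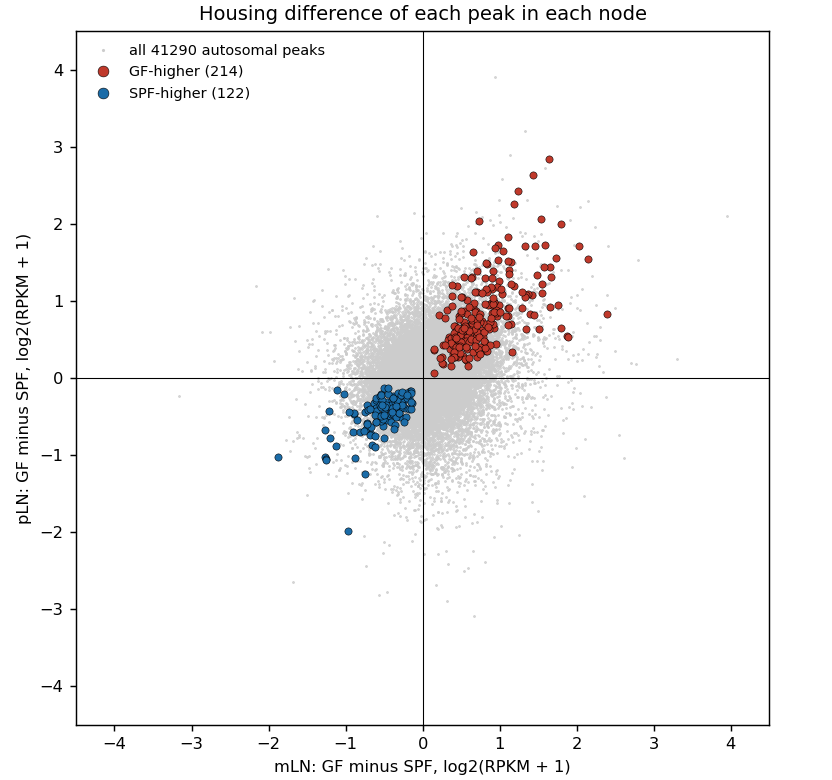
Difference between GF and SPF group means in mLN (x axis) and in pLN (y axis), both on the log2(RPKM + 1) scale, for all 41290 autosomal peaks (grey), the 214 GF-higher (red) and the 122 SPF-higher (blue) peaks. The separated peaks fall, as the rule requires, in the quadrants where both nodes have the same sign, with medians of 0.71 and 0.76 for GF-higher peaks, inside a grey cloud centred near 0.

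Few of these peaks passed the test for housing across all peaks. Averaged over the nodes, limma called 28 housing DARs, 25 with higher values in GF mice (0.0589% of the 42424 peaks) and 3 in SPF mice (0.00707%). Of the 28, 14 were among the GF-higher peaks, H2-Q7 included, and 0 among the SPF-higher peaks. The test and the rule used the same values, so the overlap is no support for either. The 14 became 55 and the 0 became 1 with limma's voom on recovered reads, and 41 and 1 without both of the shallowest SPF libraries. The 14 became 9 with the replicate block, 8 without mLN-SPF 1, 5 without pLN-SPF 1, 4 without pLN-SPF 2 and 2 to 4 without any 1 of the GF libraries. The count over all peaks was 10 without mLN-SPF 1, 8 without pLN-SPF 1, 5 without pLN-SPF 2, 49 without pLN-SPF 3 and 3 to 7 without any 1 of the GF libraries. It was 149 without both of the shallowest SPF libraries and 158 with limma's voom on the reads recovered from RPKM and width. Within single nodes, 6.43% of the autosomal peaks were separated with GF higher in mLN and 14% in pLN, and 4.62% and 14.1% with SPF higher. The order involves 3 SPF and 3 GF libraries in mLN but 3 and 2 in pLN. Fewer libraries fall apart by accident more often, so these shares cannot be compared between nodes or read as an effect of housing.

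The 2 directions differed in where their peaks lay. Of the GF-higher peaks 94 (43.9%) lay in introns, 84 (39.3%) between genes and 32 (14.95%) in promoters, that is within 1 kb of a start site. Of the SPF-higher peaks 67 (54.9%) lay in promoters, 36 (29.5%) between genes and 16 (13.1%) in introns. Over all autosomal peaks 29.9% lay in promoters, 31.1% in introns and 37.0% between genes. The median distance to a start site was 25.9 kb in GF-higher and 14.96 kb in all autosomal peaks, while 66 of the 122 SPF-higher peaks overlapped one.

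Their sequence differed likewise. GF-higher peaks were short and of low GC content, with a median width of 384.5 bp and 48.2% GC, whereas SPF-higher peaks had 828.5 bp and 57.5%, against 537 bp and 51.6% over all autosomal peaks. A CpG ratio (observed over expected) of at least 0.6, as in CpG islands, was found in 23 (10.7%) of the GF-higher, 59 (48.4%) of the SPF-higher and 26.5% of all peaks. Soft-masked repeats covered a median of 6.03%, 7.62% and 6.65%.

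Both contrasts depended on which rescaling of the libraries was used. Quantile normalization left them in place, with 15.1% and 54.8% promoters among GF-higher and SPF-higher peaks. Median GC content was then 48.2% and 57.8%, and median width 398 and 836 bp. The median GC content of GF-higher and SPF-higher peaks was 49.5% and 48.6% after GC centring. It was 49.7% and 49.5% when promoters and other peaks were centred apart. The median width was 554.5 and 458 bp after width centring. It stayed at 391.5 and 744.5 bp after GC centring and at 427 and 700 bp with promoters and other peaks centred apart. Centring by a feature takes out library differences along that feature, so the loss of a contrast in the same feature is partly built in. The median promoter peak was at 38.2 to 45.1 RPKM in SPF and 37.2 to 41.6 in GF libraries. The median peak in introns or between genes was at 22.0 to 24.2 and 23.2 to 25.7. The libraries thus overlapped but leaned the way of the separated peaks. Centring each library within 20 GC bins gave 176 GF-higher and 158 SPF-higher peaks, of which 22.2% and 27.8% were promoters. Centring within 20 width bins gave 20.7% and 29.7%. Centring promoters and other peaks apart, an alternative added after the data were seen, gave 30.7% and 22.0%, which turned the order round. Of the original peaks, 144 GF-higher and 72 SPF-higher peaks stayed when promoters and other peaks were centred apart, 135 GF-higher and 70 SPF-higher peaks stayed under GC centring, 137 and 63 under width centring, and 97 and 35 under all of 5 rescalings (GC, width, reads in peaks, median of ratios and quantiles, without the centring of promoters and other peaks).

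**Figure D5:**
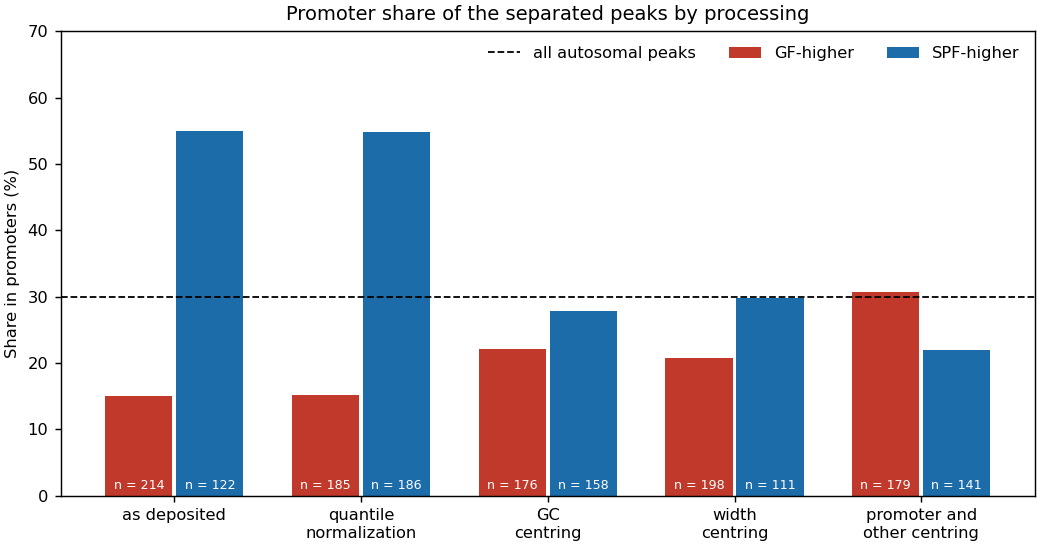
Share of promoter peaks (%) among the GF-higher (red) and SPF-higher (blue) peaks found with the deposited values and after 4 rescalings, with the number of peaks in each bar and the share over all autosomal peaks, 29.9%, as a dashed line. The wide difference of 14.95% against 54.9% stays with quantile normalization, at 15.1% against 54.8%. It shrinks to 22.2% against 27.8% with GC centring and turns round, 30.7% against 22.0%, when promoters and other peaks are centred apart.

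In the central 200 bases, AP-1 matches (TGANTCA), the sites of Fos and Jun dimers, were found in 53 (24.8%) of the GF-higher and 6 (4.92%) of the SPF-higher peaks, against 14.1% of all autosomal peaks. AP-1 matches are rarer in promoters, and among peaks outside promoters the shares were 28.0%, 7.27% and 18.7%. Under GC centring 22.7% of the GF-higher and 8.86% of the SPF-higher peaks had a match, and under the centring of promoters and other peaks 24.6% and 8.51%, and GF-higher peaks kept the larger share in the other 2 rescalings for which it was counted (width, 22.2% and 7.21%; quantiles, 25.9% and 6.45%). SP/KLF matches (GGGCGGG), common in CpG islands, had the opposite order, in 9 (4.21%) of the GF-higher, 31 (25.4%) of the SPF-higher and 13.1% of all peaks. Under GC centring the SP/KLF shares of GF-higher and SPF-higher peaks were 8.52% and 10.8%. They were 5.56% and 13.5% under width centring and 10.6% and 20.6% with promoters and other peaks centred apart. Under quantile normalization they were 3.24% and 24.7%. Among promoter peaks the SP/KLF shares of GF-higher, SPF-higher and all autosomal peaks were 18.75%, 32.8% and 33.3%. Outside promoters they were 1.65%, 16.4% and 4.55%. NF-kB matches were found in 12.1%, 7.38% and 9.52%, GATA matches (AGATAAG) in 5.61%, 0% and 2.49%, and NF-Y matches (CCAAT) in 20.1%, 21.3% and 23.4%. Outside promoters these shares were 13.2%, 10.9% and 9.84% for NF-kB and 6.04%, 0% and 3.31% for GATA. For NF-Y they were 18.1%, 27.3% and 24.4%. In all, 27 motifs were searched on both strands, and these shares were not tested.

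Of the NF-kB pathway list, 2 of 116 peaks were GF-higher (1.72%) and 1 was SPF-higher (0.862%), and of the interferon response list 1 of 51 was GF-higher (1.96%), against 0.518% and 0.295% of all autosomal peaks. The median housing difference of these lists was -0.05 and -0.04 on the log2(RPKM + 1) scale. Usp18, which removes ISG15 from proteins and dampens interferon signaling, had the strongest GF-higher promoter peak, with 66.3, 77.2 and 78.9 RPKM as lowest, median and highest SPF values and 80.3 to 82.8 RPKM in GF libraries. The difference of means was only 1.08 times, and the peak was separated under 2 of the 5 rescalings. An intronic peak of Nfkb1, the gene of the NF-kB subunit p50, had 39.5 ± 5.72 RPKM in SPF and 54.4 ± 10.6 in GF libraries. An intronic peak of Map3k14, the kinase of the noncanonical NF-kB pathway, had 23.3 ± 7.05 and 34.5 ± 3.44.

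The promoter of Il1rl1, the receptor of interleukin 33, was at 7.06 to 13.3 RPKM in SPF and 14.8 to 19.1 in GF libraries. That of Tnfsf11, which encodes RANKL, a cytokine required to form lymph nodes, was at 17.8 to 28.8 and 31.3 to 40.8 RPKM on 6 to 24 reads. The SPF-higher peak of the NF-kB list was the promoter of Tnfrsf1a, a receptor of tumor necrosis factor, which had 35.1 ± 3.20 RPKM in SPF and 26.5 ± 3.64 in GF libraries.

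Members of the TGF-beta and BMP list lay near 3 GF-higher and 0 SPF-higher peaks of 250, or 1.2% GF-higher against 0.518% of all autosomal peaks. They were a peak 145 kb from Grem1, a BMP antagonist of reticular cells (12.9 ± 1.28 RPKM in SPF, 19.4 ± 2.37 in GF), an intronic peak of Tgfbr3, a TGF-beta coreceptor (29.2 ± 3.78 and 45.9 ± 8.44), and a peak 123 kb from Smad7, an inhibitor of TGF-beta signaling (25.7 ± 5.45 and 37.6 ± 2.19). Each lay within an intron, for Grem1 and Smad7 of another gene. A peak 5.84 kb from Crabp2, which carries retinoic acid to the nucleus, had a ratio of 2.06, with 15.4 to 24.2 RPKM in SPF and 34.0 to 56.2 in GF libraries. The promoter of Dnmt3b, a de novo DNA methyltransferase, was at 23.98 to 28.2 and 29.9 to 35.4 RPKM, and a peak 95.8 kb from Egr2, an immediate early factor, at 45.9 to 76.1 and 79.0 to 107.

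Of the list of collagens and matrix, 1 of 275 peaks was GF-higher (0.364%) and 2 were SPF-higher (0.727%), against 0.518% and 0.295% of all autosomal peaks. Timp3, an inhibitor of matrix proteases, was nearest to the GF-higher peak (72.8 ± 11.7 RPKM in SPF, 102 ± 8.63 in GF). Eln, which encodes elastin, and Fn1, which encodes fibronectin, were nearest to the SPF-higher ones. The Eln promoter had 38.3 ± 5.93 RPKM in SPF and 27.6 ± 3.40 in GF libraries. The peak near Fn1 lay 259 kb away and had 21.9 to 28.2 against 7.41 to 20.8 RPKM.

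Genes of the glucocorticoid response were nearest to 4 SPF-higher and 0 GF-higher of 94 peaks. That is 4.26%, against 0.295% of all autosomal peaks, and it was the highest of the 24 lists, so it was singled out by its value. Hsd11b1, which makes active glucocorticoid from its inactive form, had an intronic peak at 23.3 ± 3.61 RPKM in SPF and 14.5 ± 3.91 in GF libraries. Fkbp5, a chaperone that holds the receptor inactive, had a peak 5.00 kb away at 35.1 ± 10.3 and 23.04 ± 3.27, where mLN-SPF 1 stood out at 54.4. A peak 83.3 kb from Klf9, a target of the receptor, had 29.7 ± 4.63 and 20.3 ± 2.17 RPKM. The promoter of Cebpb, a factor of fat cells and the acute phase response, had 39.0 ± 9.08 and 27.3 ± 4.80 and was separated under 2 of the 5 rescalings.

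The median housing difference over the 94 peaks, which includes those 4, was -0.14 on the log2(RPKM + 1) scale, against 0.00 over all peaks. Lists with no separated peak had medians as far from 0, at -0.17 for the genes around the Thy1 locus and 0.18 for perivascular and smooth muscle genes. Xbp1, a factor of the unfolded protein response on the stress list, was nearest to an SPF-higher peak 17.8 kb away (31.5 ± 1.30 RPKM in SPF, 25.7 ± 1.04 in GF).

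Over the 24 lists, 13 GF-higher and 8 SPF-higher peaks lay nearest to a listed gene, or 0.660% and 0.406% of their 1971 peaks, near the 0.518% and 0.295% of all autosomal peaks. The lists of microbial sensing (72 peaks), the circadian clock (91), the aryl hydrocarbon receptor (35), bile acid, fatty acid and nuclear receptors (90), the cell cycle (64), adipocyte (25), endothelial (51), hematopoietic (32), mesothelial (18) and perivascular and smooth muscle (41) genes, and the genes around the Thy1 locus (37), had 0 in either direction. CD90.1 is an allele of Thy1. Within 5 Mb of it 4 of 214 peaks (1.87%) were GF-higher and 1 (0.467%) was SPF-higher, and within 1 Mb 0 and 1 of 67.

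The strongest promoters among the separated peaks had ratios of means of 1.08 to 1.67 on the GF-higher side and 1.19 to 1.29 on the SPF-higher side. After Usp18 the GF-higher ones were Ecd, a cell cycle regulator gene (71.2 ± 4.09 RPKM in SPF, 86.1 ± 5.62 in GF), Ddr1, a collagen receptor gene (60.8 ± 7.22 and 79.3 ± 10.5), and Rtf2, a gene of replication termination (44.6 ± 9.43 and 74.5 ± 18.6). At Rtf2 mLN-GF 3 reached 107 RPKM and the other GF libraries 61.0 to 69.6. The SPF-higher ones were Hdhd3 (88.1 ± 6.25 in SPF, 74.0 ± 4.39 in GF), Socs5 (81.5 ± 6.90 and 66.1 ± 6.41), Slc19a2, a thiamine transporter gene (78.0 ± 5.66 and 64.8 ± 4.10), and Etv6, an ETS family repressor gene (69.6 ± 6.25 and 54.1 ± 7.97). Hdhd3 was separated under 1 and Socs5 under 0 of the 5 rescalings. Among the other named peaks, those of Glis3 and Ahnak were separated under 1, and those of Lgmn and Tcp11 under 2. Those of Rbp2, Egr2, Timp3, Eln and Slc19a2 and the Atp11b peak 271 kb from its start site were separated under 3.

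Several genes were nearest to more than 1 separated peak. Pde4d, which encodes a cyclic AMP phosphodiesterase, had a GF-higher promoter peak (14.9 ± 2.85 RPKM in SPF, 29.7 ± 3.89 in GF) and another 18.03 kb away in its intron (9.49 ± 2.02 and 20.4 ± 2.99). The 2 GF-higher peaks nearest Atp11b lay within 78.0 kb of each other, the second at 14.1 ± 3.20 and 28.2 ± 7.94. Auh, a mitochondrial enzyme and RNA-binding protein gene, had peaks at 9.85 ± 2.98 and 23.95 ± 3.98 near its start and 23.8 ± 5.52 and 44.3 ± 5.96 at a distance of 142 kb. Pam, an enzyme that amidates peptides, had 2 intronic peaks, at 23.3 ± 6.84 and 42.7 ± 5.17 and at 23.2 ± 3.78 and 39.5 ± 8.43.

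Fat3, a large cadherin gene, had a promoter peak at 15.4 ± 2.67 RPKM in SPF and 23.7 ± 3.04 in GF libraries and an intronic one at 12.3 ± 2.78 and 17 ± 1.29. On the SPF-higher side Nckap5 had its promoter (33.4 ± 2.82 RPKM in SPF, 26.0 ± 3.22 in GF) beside the intronic peak above. Within 100 kb of each other lay 8 pairs of GF-higher peaks and 1 pair of SPF-higher peaks, at Tysnd1 and Aifm2. Such pairs were not counted among other peaks. Chromosome 3 held the most GF-higher peaks, 24 of 2513 (0.955%), and chromosome 19 the highest share of SPF-higher ones, 10 of 1206 (0.829%). Chromosome 18 held 7 and 0 of 1358. The shares over all autosomal peaks were 0.518% and 0.295%, and these chromosomes were singled out by their values.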

How the data were processed

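ATAC-seq was deposited for 12 libraries, of which 11 held measurements. Per the study's methods, the authors mapped reads with STAR 2.5.3a to GRCm38, used only uniquely mapped ones and discarded PCR duplicates (Picard), found broad peaks per library with MACS2, joined overlapping peaks, took out blacklisted regions and scaled counts with DESeq2 1.22. A correction for the transposase offset is not given in the sources used here. The deposited RPKM values, scaled by the authors to peak length and library size, came back as whole reads when multiplied by peak width in 100% of cases (within 0.02 of a read). The table also holds the authors' fold changes and p-values, which were not used, and 1 column of no library (a mean). Of 42434 entries, 42424 were distinct.

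A peak was separated where the 6 SPF and 5 GF values did not overlap, without a test. Genes came from GENCODE vM21 (GRCm38). Location, housing and their interaction were tested with limma 3.58.1 (R 4.3.3) on log2(RPKM + 1), with 4 group means, a variance trend, 7 residual degrees of freedom and Benjamini-Hochberg adjustment over 42424 peaks, two-sided. This scale understates changes of weak peaks. The study's count test was not used, since the values are RPKM. The scripts were tested on simulated data. Named were, per direction, the 8 peaks with the largest gap on that scale, the 4 strongest promoters, up to 4 per gene list (24 lists), up to 3 per sign by adjusted p for location, up to 5 genes with several peaks, and the 2 peaks on each side of the edge; 1 peak that the rule names is not reported here. The members and lists were chosen with earlier results of these data known. Motifs (27) and classes were counted by Python 3.11.15 with pandas 2.3.3. Alternatives were scaling, GC, width and class centring, pseudocounts, filters, voom, a replicate block and left-out libraries.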

Additional observations from a re-analysis of the deposited data

How the results depend on the processing

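The counts of 214 GF-higher and 122 SPF-higher peaks kept within 1.5 times of these under scaling to reads in peaks (278 and 87), median of ratios (217 and 121), GC, width and class centring and a mean of at least 10 RPKM (214 and 120). The median-of-ratios factors of the libraries were 0.996 to 1.003, so that setting could change little. Quantile normalization kept the GF-higher count (185) but gave 186 SPF-higher peaks. A gap of at least 1.2-fold left 42 and 4. Without both of the shallowest SPF libraries the counts were 786 and 573, and without both mLN libraries numbered 2 (added after the data were seen) 475 and 376. Within mLN alone they were 2655 and 1909, and within pLN alone 5801 and 5804. These 4 settings ask for fewer libraries to be ordered, pLN alone for the fewest. Leaving out 1 library gave 259 to 425 and 163 to 510.

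Location DARs among GF-higher peaks and SPF-higher peaks, the interaction and housing DARs were refitted with other pseudocounts, median of ratios, quantiles, a mean of at least 10 RPKM, voom, the replicate block and without libraries, but not with reads in peaks, GC, width or class centring or without both mLN libraries numbered 2. In these refits location DARs were 1 except with a pseudocount of 5 RPKM (0) among GF-higher peaks, and 0 except with quantile normalization (1; the cause was not tested) among SPF-higher peaks. The interaction was called in 0 of the 336 peaks in each of them. Housing DARs over all peaks (28) became 18 with quantile normalization, 158 with voom, 149 without both of the shallowest SPF libraries and 3 to 49 without 1 library, lowest without pLN-GF 3 and highest without pLN-SPF 3. Deviations of same-numbered libraries from their group means correlated at 0.20 to 0.27 over peaks among the 3 libraries numbered 2, but at -0.15 to 0.06 among those numbered 1 and -0.10 to 0.23 among those numbered 3. The labels name no shared animal or batch, so the numbers were not taken to pair samples, and not every sample correlated best with its own number. With the replicate number as a block, there were 24 housing DARs, 1 and 0 location DARs among GF-higher and SPF-higher peaks, and 0 interaction calls. Of 65 named peaks, none changed direction under the scalings, GC and width centring, filter, pseudocounts and left-out libraries run for them. Voom, the block, class centring and leaving out both mLN libraries numbered 2 were not run for them. In separated peaks the filter, pseudocounts and left-out libraries cannot change the direction, because the rule fixes it. Only the scalings and the GC and width centring could have done so. Of the values under these settings, 9 moved by over 1 SD while 1290 did not. Depth limits the small peaks most, since 58 of the 214 GF-higher and 9 of the 122 SPF-higher peaks held under 10 reads in some library.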
